A study of Mus musculus with 39 samples.

Results

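Amino acid transporters of the cell surface were examined as 10 genes listed by symbol, namely Slc3a2, Slc7a5, Slc7a6, Slc7a7, Slc7a1, Slc7a11, Slc1a4, Slc1a5, Slc38a1 and Slc38a2. All 10 were on the array, on 13 probe sets, out of 12393 genes and 20380 probe sets that carry 1 gene symbol each. A gene with several probe sets is represented by the brightest of them, averaged across the 39 arrays, and values are the log2 of the intensity. Slc1a4 had 3 probe sets, Slc7a6 had 2, and the remaining transporters had 1 each.

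The arrays measured total RNA of B-lineage cells sorted from mouse bone marrow in a study of leukemia driven by MLL-AF4, a fusion of the histone methyltransferase gene MLL with AF4. Leukemic pre-B cells (B220+ CD43- IgM- IgD-) came from 16 mice, of which 5 became leukemic after pIpC (polyinosinic-polycytidylic acid, a double-stranded RNA that evokes interferon) and 11 are listed with no pIpC, among them array 116, described by its Mll-AF4stop knock-in allele with no mention of leukemia. Normal cells of adult marrow were pro-B (B220+ CD43+ IgM- IgD-, 6 arrays), pre-B sorted by the same markers as the leukemic cells (8 arrays), immature B (B220+ CD43- IgM+ IgD-, 6 arrays) and mature B (B220+ CD43- IgM+ IgD+, 3 arrays). The labels give no strain, sex or exact age, no promoter or recombinase for the knock-in and no statement on pooling, so the p-values measure only the spread between these arrays.

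Cells take up amino acids through carriers of several families, which either exchange one amino acid for another or bring it in together with sodium. Slc3a2 encodes the CD98 heavy chain, which has no transport activity of its own and carries several Slc7 light chains to the surface, among them Slc7a5 for leucine and other large neutral amino acids, Slc7a6 and Slc7a7 for cationic against neutral amino acids, and Slc7a11 for cystine against glutamate. Uptake of leucine and glutamine feeds the growth kinase complex mTORC1 in lymphocytes, and when amino acids run short the factor ATF4 raises many transporter and synthesis genes, Asns (asparagine synthetase) being a classic target.

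Array medians lay between 6.36 and 6.76 on the log2 scale. The arrays fall into 2 runs of consecutive deposit numbers, 22 arrays in run 1 and 17 in run 2. The ratio of the 3' to the 5' beta-actin control probes averaged 1.29 ± 0.08 on the log2 scale in run 1 and 0.80 ± 0.14 in run 2 (SD) with no overlap. The same ratio for Gapdh ran the other way, at 0.97 ± 0.11 in run 1 and 1.29 ± 0.20 in run 2, with overlap. Values within a run are given beside some of the results. All 3 mature B arrays are in run 2, and the leukemic arrays divide into 12 in run 1 and 4 in run 2. Leukemic array 122 went against its label as a B-lineage sample: its mean over 9 B-lineage genes was 7.22, against 10.01 to 10.77 on the other 15 leukemic arrays, and 8 of the 9 genes, Cd79a among them at 7.0, were below all the others. Leukemic array 153 had a mean of 7.72 over 11 macrophage genes, against 4.25 to 5.61 on the other leukemic arrays. In these bulk samples fewer cells of a type and less RNA per cell cannot be told apart.

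Promoter sequences, 250 bases before to 50 after the gene start, were at hand for 7 of the 10 transporters in 13 windows of RefSeq on build GRCm38.p6. Slc7a5, Slc1a5 and Slc38a1 are named only. The windows of 3 transporters held TGATGNAA, the letters of the composite element that C/EBP-ATF dimers bind, searched on both strands: Slc7a11 and Slc7a7 with 2 matches each in their first window, and Slc1a4 with 1. Counted by window, these letters were in 4 of the 13, among them overlapping windows of Slc7a7 that share a match, and in 3.97% of all 32851 windows of this length. CACGTG, the palindromic E-box bound by Myc and Max, was in 0 of the 13 windows and in 7.15% of all windows. The 4 windows below are shown because Slc1a4 had the widest spread among leukemic samples, Slc7a11 and Slc7a7 hold the paired matches, and Slc7a6, which passed the test in leukemic cells, holds none. Capitals mark TGATGNAA or its complement, and a match is a description of the letters and not evidence of binding. They lie on the minus strand at chr11:20332664-20332963 (Slc1a4), chr3:50443564-50443863 (Slc7a11) and chr14:54417895-54418194 (Slc7a7), and on the plus strand at chr8:106168604-106168903 (Slc7a6), around the first base of each transcript.
Slc1a4: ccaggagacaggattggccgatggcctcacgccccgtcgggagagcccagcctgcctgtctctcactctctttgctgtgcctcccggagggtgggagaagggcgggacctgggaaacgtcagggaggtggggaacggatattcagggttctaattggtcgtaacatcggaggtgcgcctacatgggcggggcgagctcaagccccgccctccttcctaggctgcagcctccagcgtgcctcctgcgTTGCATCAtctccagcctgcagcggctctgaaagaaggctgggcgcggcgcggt
Slc7a11: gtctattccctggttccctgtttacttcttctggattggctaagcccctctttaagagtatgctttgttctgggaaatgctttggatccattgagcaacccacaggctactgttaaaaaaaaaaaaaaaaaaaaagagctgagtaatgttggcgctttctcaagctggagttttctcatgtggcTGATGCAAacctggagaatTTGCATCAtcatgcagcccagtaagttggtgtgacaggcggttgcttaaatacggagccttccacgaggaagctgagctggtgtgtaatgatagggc
Slc7a7: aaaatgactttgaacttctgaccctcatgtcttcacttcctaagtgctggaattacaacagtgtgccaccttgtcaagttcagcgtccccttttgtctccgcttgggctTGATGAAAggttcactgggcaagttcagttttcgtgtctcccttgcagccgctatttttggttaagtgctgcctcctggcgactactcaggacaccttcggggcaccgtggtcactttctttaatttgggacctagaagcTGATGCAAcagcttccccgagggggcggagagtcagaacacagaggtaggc
Slc7a6: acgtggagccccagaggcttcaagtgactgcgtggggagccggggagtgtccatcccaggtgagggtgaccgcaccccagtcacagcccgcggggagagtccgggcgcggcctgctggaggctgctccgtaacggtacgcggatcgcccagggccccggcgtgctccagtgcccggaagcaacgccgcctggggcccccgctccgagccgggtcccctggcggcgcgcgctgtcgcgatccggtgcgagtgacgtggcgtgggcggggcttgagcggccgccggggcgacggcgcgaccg

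Counted from the gene start, the matches of Slc7a11 began at -66 and -47, on opposite strands. Those of Slc7a7 began at -141 and -1, both on the strand of the gene, and the later one is also in the next of its windows. The match of Slc1a4 began at -4 on the opposite strand.

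Of the 10 transporters, 8 lay above the dimmest 40% of genes by mean level (5.65). Slc38a2, a sodium-coupled carrier of small neutral amino acids, had a mean of 10.27 over all arrays, at percentile 86.4 among genes. Slc1a5, an exchanger of glutamine and other neutral amino acids, averaged 9.53 (percentile 78.9), and Slc3a2 9.14 (percentile 74.4). Slc7a11 and Slc7a1, the main arginine and lysine carrier, averaged 3.90 and 3.31 (percentiles 18.6 and 9.92), within the range of probe sets that may report background only. The percentiles place each probe set among all genes, and levels of different probe sets are not set against each other.

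Against normal pre-B cells of the same gate, 2 of the 10 transporters were higher in leukemic pre-B cells, 1 was lower and 7 did not pass, where 16% of all genes passed (8.5% higher and 7.53% lower; limma, adjusted p under 0.05). The higher ones were Slc7a5 and Slc7a6, both light chains of CD98, and the lower one was Slc1a5. The median difference of the 10 was 0.36 on the log2 scale, against -0.01 over all genes.

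Markers of other cells and of the cell cycle moved in the same comparison. Of 16 neutrophil and monocyte genes 6 were lower in leukemic pre-B cells and 0 higher, with array means of 4.93 to 8.91, against 6.80 to 8.68 in pre-B cells. Of 8 plasmacytoid dendritic cell genes 4 were lower (6.84 to 9.85 in leukemic cells, against 7.53 to 9.77 in pre-B cells), as were 3 of 15 NK and T cell genes (4.69 to 7.04, against 5.81 to 6.40) and 3 of 15 cell-cycle genes (9.59 to 11.01, against 10.39 to 11.22). Of 11 macrophage genes 0 passed. The part of these in the transporter differences was not tested.

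Slc7a5 had a lowest, median and highest level of 8.48, 9.61 and 10.39 in leukemic pre-B cells, against 7.04, 7.71 and 8.13 in pre-B cells. Every leukemic sample stood above every normal pre-B sample, as groups did for 1.55% of genes. The difference was 1.89 ± 0.20 (SE; 95% interval 1.49 to 2.30), a 3.72-fold higher intensity (adjusted p = 1.87e-07, limma). It was 1.80 within run 1 and 2.15 within run 2 (adjusted p = 0.000177 and 0.00288), and 1.90 without arrays 116 and 122.

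Slc7a6 had levels of 8.59, 9.53 and 9.93 in leukemic pre-B cells, against 7.97, 8.49 and 8.65 in pre-B cells (lowest, median and highest). All leukemic samples but array 226 stood above the highest pre-B sample. The difference was 1.09 ± 0.15 (2.13-fold; 95% interval 0.78 to 1.39; adjusted p = 7.7e-06, limma). The second Slc7a6 probe set, which averaged 8.74 ± 0.59 in leukemic cells and 7.82 ± 0.40 in pre-B cells (SD, n = 16 and 8), differed by 0.92 in the same direction (adjusted p = 0.00479 over all probe sets, limma).

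Slc3a2, the partner chain, spanned 7.97, 9.22 and 10.23 in leukemic pre-B cells, against 7.96, 8.74 and 9.0 in pre-B cells. The groups overlapped, with 10 of 16 leukemic samples above the highest pre-B sample. The difference of 0.50 ± 0.22 (95% interval 0.05 to 0.95) had an adjusted p of 0.131 in limma. It passed with the run as a covariate (0.67, adjusted p = 0.00923), within run 2 (0.91, adjusted p = 0.0265) and without leukemic array 226, the lowest sample (0.58, adjusted p = 0.0388), but not within run 1 (0.51, adjusted p = 0.262).

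Slc7a7, the other exchanger of cationic for neutral amino acids, was the most uneven of the CD98 light chains in leukemia, at 6.07, 8.03 and 9.62 in leukemic pre-B cells, against 6.61, 7.19 and 7.82 in pre-B cells. Leukemic samples lay on both sides of the normal range, 9 above it and 3 below. The difference was 0.64 ± 0.40 (95% interval -0.18 to 1.45; adjusted p = 0.331, limma). Array 153, with the raised macrophage genes, had 9.38 for Slc7a7, and array A1322, the highest at 9.62, had a macrophage mean of 4.89, within the range of the other leukemic arrays. The part of macrophage RNA in the Slc7a7 values was not tested.

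**Figure D1:**
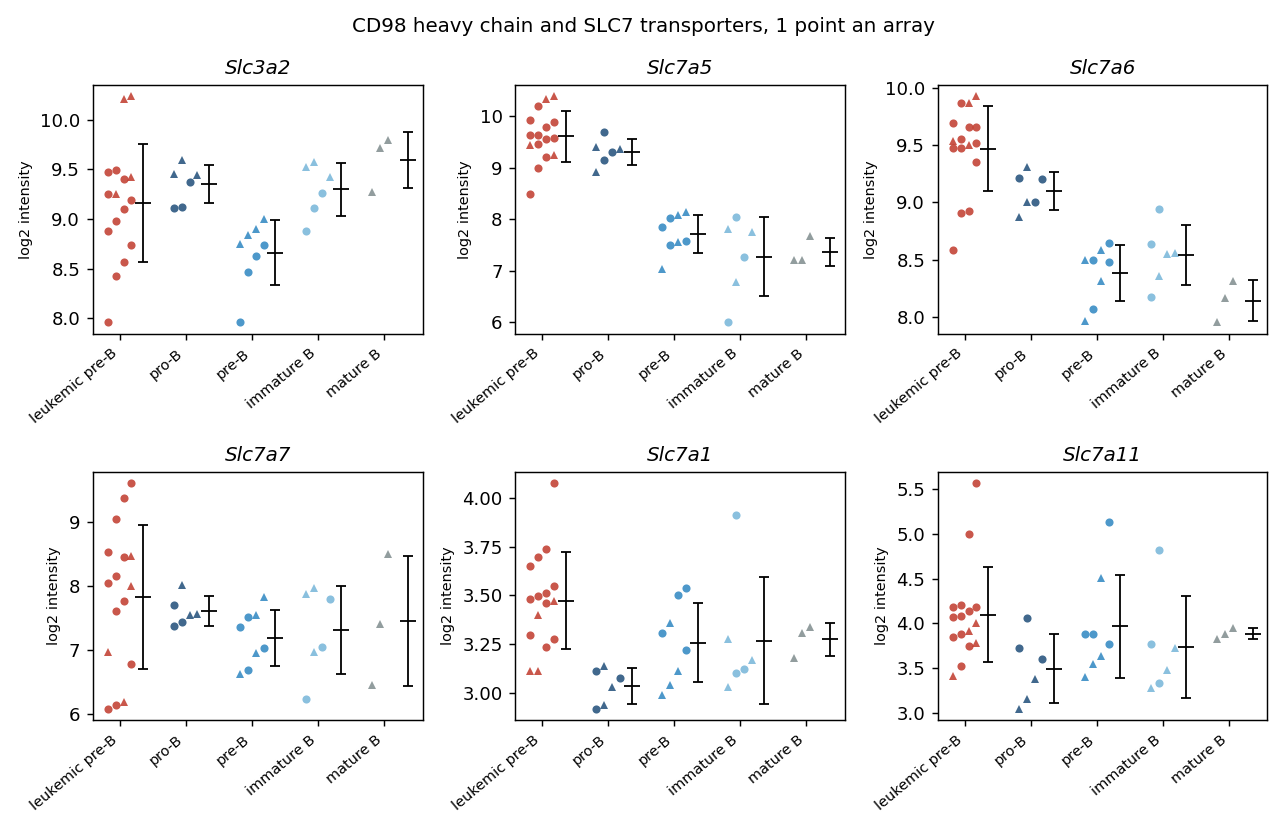
Log2 intensity of Slc3a2 and the 5 Slc7 transporters on each array, by cell group; circles are accession run 1, triangles run 2, and the bar beside each group is the mean ± SD. Slc7a5 runs from 8.48 to 10.39 in leukemic pre-B cells, clear of the 7.04 to 8.13 of pre-B cells, while Slc7a7 in leukemic cells spans 6.07 to 9.62.

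Slc7a11 had levels of 3.41, 4.04 and 5.57 in leukemic pre-B cells, against 3.40, 3.82 and 5.13 in pre-B cells, and Slc7a1 had 3.11, 3.48 and 4.08, against 2.99, 3.26 and 3.54. Both pairs of ranges overlapped at the dim end of the array. The differences were 0.13 (95% interval -0.34 to 0.60) and 0.22 (95% interval -0.00 to 0.43), with adjusted p of 0.79 and 0.192 (limma). Leukemic array 226 was the highest for both of these dim genes and the lowest for Slc3a2, Slc7a5, Slc7a6 and Slc7a7.

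Among the neutral amino acid carriers, Slc1a5 had levels of 6.63, 9.34 and 10.91 in leukemic pre-B cells, against 9.75, 10.23 and 11.34 in pre-B cells. Of the 16 leukemic samples, 13 were below the lowest pre-B sample, and arrays 270, A46 and 17 lay inside the normal range. The difference was -1.15 ± 0.38 (2.21-fold lower; 95% interval -1.93 to -0.36; adjusted p = 0.0388, limma). This call was at the edge of the threshold. Of 10 alternative settings, 6 kept it and 4 lost it. It passed with all arrays in a single fit (-1.15, adjusted p = 0.0141, limma). With the run as a covariate the difference was -0.83 (adjusted p = 0.0551), within run 1 it was -1.10 (adjusted p = 0.14) and within run 2 it was -0.42 (adjusted p = 0.427). The call was also lost on leaving out any one of 12 single arrays (leukemic 116, 122, 153, A992, A1322 or A1507; pre-B 1, 2, 3, 4, 6 or 8), with adjusted p of 0.0501 to 0.0962, and without 116 and 122 together (-0.98, adjusted p = 0.0706).

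Slc1a5 also differed between the runs in pre-B and in pro-B cells. In pre-B cells it was 9.83, 9.97, 9.75 and 10.002 in run 1 and 10.56, 11.34, 10.65 and 10.46 in run 2, with no overlap. In pro-B cells it was 8.05, 8.79 and 8.11 in run 1 and 9.66, 8.81 and 9.37 in run 2, again with no overlap. In immature B cells, by contrast, the highest sample (10.86) was in run 1. The part of the run in the leukemic values was not tested further, since run 2 holds 4 leukemic arrays.

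Slc1a4, an exchanger of alanine, serine, cysteine and threonine, had levels of 6.65, 8.43 and 10.98 in leukemic pre-B cells, against 6.63, 7.17 and 8.31 in pre-B cells. The upper end of the leukemic range was far above the normal one, with 9 of 16 samples above the highest pre-B sample, while the lower ends met. The difference was 1.28 ± 0.47 (2.43-fold; 95% interval 0.31 to 2.24; adjusted p = 0.0638, limma). It passed without array 122 (1.39, adjusted p = 0.0373), 224 (1.37, adjusted p = 0.0472), 270 (1.41, adjusted p = 0.0335) or 15 (1.38, adjusted p = 0.0435), and without 116 and 122 together (1.41, adjusted p = 0.0394). At the same 1.28 it also passed with the dimmest 40% of genes set aside (adjusted p = 0.0428) and with all 39 arrays in a single fit (adjusted p = 0.0208). Within the runs it was 1.0 and 1.70 (adjusted p = 0.287 and 0.284). The SD of Slc1a4 among leukemic samples, 1.35, stood at percentile 95.3 among all genes. Those of Slc7a7 (1.13) and Slc1a5 (1.08) stood at percentiles 92.6 and 91.7, and that of Slc38a2 (0.23) at 13.3.

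The 2 dimmer Slc1a4 probe sets, at 4.53 ± 0.51 and 3.65 ± 0.93 in leukemic cells and 4.31 ± 0.32 and 3.0 ± 0.25 in pre-B cells (SD, n = 16 and 8), differed by 0.22 and 0.65 (adjusted p = 0.533 and 0.186 over all probe sets, limma). Slc38a1, a glutamine carrier coupled to sodium, was at 7.90, 8.48 and 9.31 in leukemic pre-B cells, against 8.03, 8.39 and 8.64 in pre-B cells. Slc38a2 was at 9.95, 10.33 and 10.89 in leukemic pre-B cells, against 10.19, 10.46 and 10.62 in pre-B cells. Both overlapped, with differences of 0.21 (95% interval -0.08 to 0.51) and -0.09 (95% interval -0.28 to 0.11) and adjusted p of 0.378 and 0.629 (limma).

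**Figure D2:**
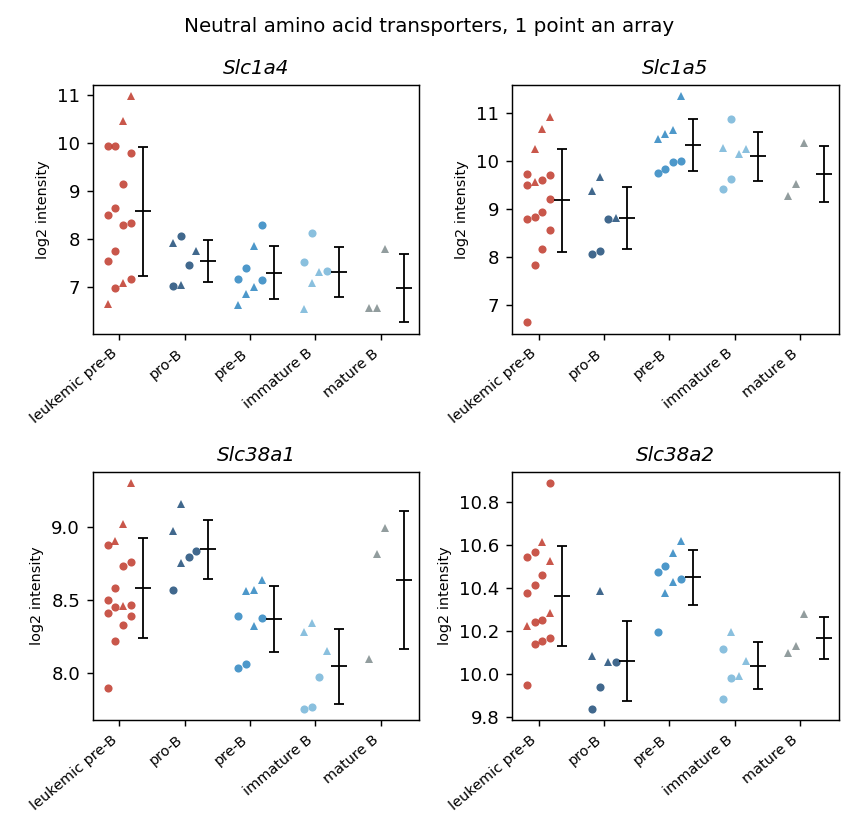
Log2 intensity of the neutral amino acid carriers Slc1a4, Slc1a5, Slc38a1 and Slc38a2 on each array, by cell group; circles are accession run 1, triangles run 2, and the bar beside each group is the mean ± SD. Slc1a4 reaches 10.98 in leukemic pre-B cells where no normal sample passes 8.31, and Slc1a5 runs from 9.75 to 11.34 in pre-B cells, above most leukemic and pro-B samples.

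Against pro-B cells, the earlier stage, 1 of the 10 transporters differed in leukemic pre-B cells, where 15.7% of all genes did (8.11% higher and 7.63% lower; limma, adjusted p under 0.05). This comparison uses the same leukemic arrays as the one above. The called gene was Slc7a1, one of the dim ones, at 3.11, 3.48 and 4.08 in leukemic cells, against 2.91, 3.05 and 3.13 in pro-B cells, with 14 of 16 leukemic samples above the pro-B range. It was higher by 0.44 ± 0.11 (1.36-fold; adjusted p = 0.0101, limma), and did not pass within run 1 (0.51) or within run 2 (0.24). With the dimmest 40% of genes set aside, no transporter was called.

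Slc7a5 did not pass: pro-B samples were at 8.92, 9.34 and 9.69, inside the leukemic range of 8.48 to 10.39, and the difference was 0.30 (95% interval -0.13 to 0.74; adjusted p = 0.3, limma). Slc7a6 pro-B samples were at 8.87, 9.11 and 9.31, with 13 of 16 leukemic samples above them, and the difference was 0.37 (95% interval 0.03 to 0.70; adjusted p = 0.111). For Slc3a2, with pro-B samples at 9.11, 9.41 and 9.59, it was -0.19 (95% interval -0.69 to 0.31; adjusted p = 0.595). An adjusted p above the threshold does not show equal levels, and the intervals give the sizes these arrays allow.

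Slc1a4 differed by 1.03 between leukemic and pro-B cells (95% interval -0.06 to 2.13; adjusted p = 0.165, limma), with pro-B samples at 7.02, 7.61 and 8.08. Slc1a5 differed by 0.38 (95% interval -0.54 to 1.29), Slc7a7, at 7.38, 7.56 and 8.02 in pro-B samples, by 0.22 (95% interval -0.70 to 1.14), Slc38a1 by -0.27 (95% interval -0.60 to 0.07) and Slc38a2 by 0.30 (95% interval 0.07 to 0.54), and none passed. Slc38a2 did pass without leukemic array 122 (0.33, adjusted p = 0.0346) or pro-B array 1 (0.37, adjusted p = 0.0473), and Slc7a6 without leukemic array 226 (0.43, adjusted p = 0.0296). Slc7a11, with a difference of 0.60 (adjusted p = 0.0691) and pro-B samples at 3.04, 3.49 and 4.06, passed without leukemic array 226 (0.50, adjusted p = 0.0409) or A46 (0.65, adjusted p = 0.0499). Without arrays 116 and 122 together 3 transporters passed, Slc7a1 (0.45), Slc38a2 (0.34) and Slc7a11 (0.66).

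**Figure D3:**
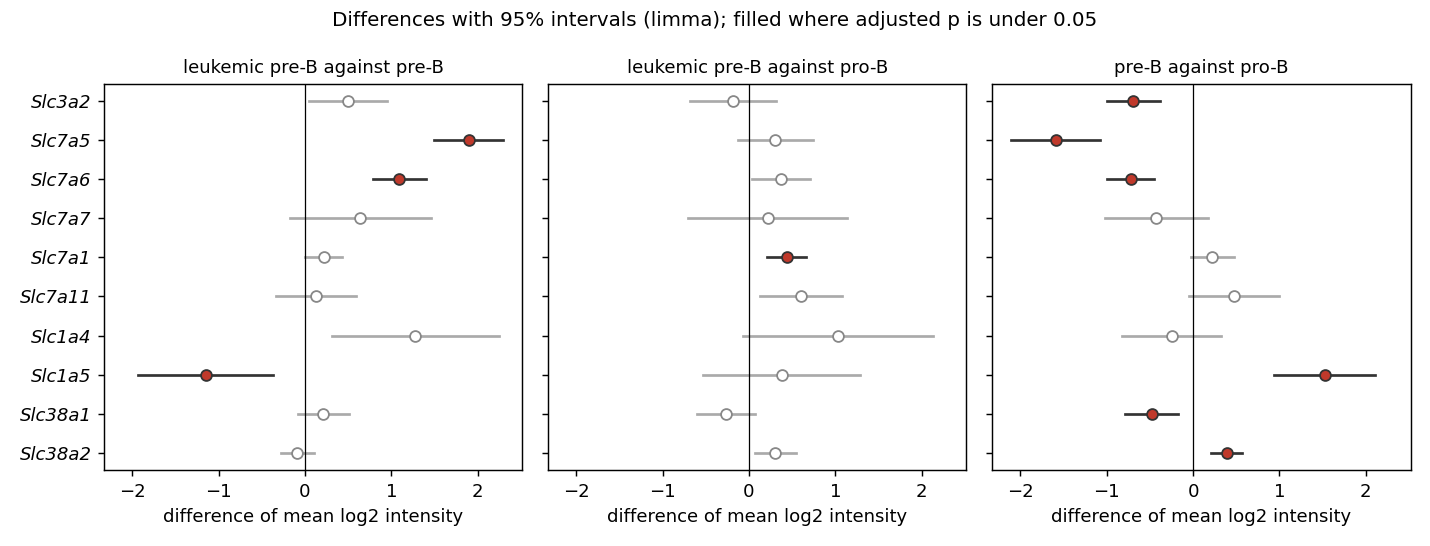
Difference of mean log2 intensity with its 95% interval (limma) for the 10 transporters in leukemic pre-B against pre-B, leukemic pre-B against pro-B, and pre-B against pro-B; filled points have an adjusted p under 0.05. Slc7a5 is at 1.89, 0.30 and -1.59 in the 3 panels, and Slc1a5 at -1.15, 0.38 and 1.52.

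In normal development the largest number of transporters differed at the step between the pro-B and pre-B stages: 6 of 10 passed, 2 higher and 4 lower in pre-B cells, where 33.6% of all genes passed (17.9% higher and 15.7% lower). The 4 lower ones were Slc3a2, Slc7a5, Slc7a6 and Slc38a1, and the 2 higher ones Slc1a5 and Slc38a2. The median difference of the 10 was -0.34, against 0.11 over all genes. The pre-B and pro-B arrays are those used above against the leukemic ones.

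Slc7a5 had a difference of -1.59 ± 0.25 (3.01-fold lower in pre-B cells; 95% interval -2.10 to -1.08; adjusted p = 2.97e-05, limma), with the levels given above, and all pre-B samples were below all pro-B samples. Slc7a6 differed by -0.72 ± 0.13 (adjusted p = 0.000192) and Slc3a2 by -0.69 ± 0.15 (adjusted p = 0.00117), both without overlap. Groups did not overlap in 10.8% of genes. Within run 1 the differences of Slc7a5, Slc7a6 and Slc3a2 were -1.65, -0.72 and -0.76, and within run 2 they were -1.53, -0.72 and -0.63, all with adjusted p under 0.05. The second Slc7a6 probe set, at 7.82 ± 0.40 in pre-B cells and 8.51 ± 0.24 in pro-B cells (SD, n = 8 and 6), differed by -0.69 (adjusted p = 0.00323).

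Slc1a5 went the other way, with all pre-B samples (9.75 to 11.34) above all pro-B samples (8.05, 8.80 and 9.66). It was higher by 1.52 ± 0.28 (2.87-fold; 95% interval 0.94 to 2.11; adjusted p = 0.000222, limma), by 1.57 within run 1 and by 1.47 within run 2. Slc38a2 was higher by 0.39 ± 0.09 (adjusted p = 0.00144), with pro-B samples at 9.83, 10.05 and 10.39 and 6 of 8 pre-B samples above them. Slc38a1 was lower, at 8.03, 8.39 and 8.64 in pre-B cells, against 8.57, 8.82 and 9.16 in pro-B cells (difference -0.48 ± 0.15, adjusted p = 0.0181). The Slc38a1 call was lost within run 2 (-0.44, adjusted p = 0.136) and without pro-B array 2 (-0.42, adjusted p = 0.0523), and the Slc38a2 call within run 2 (0.32, adjusted p = 0.0589).

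Slc7a7, Slc1a4, Slc7a11 and Slc7a1 did not pass between pre-B and pro-B, with differences of -0.42, -0.25, 0.47 and 0.22 (adjusted p = 0.249, 0.496, 0.139 and 0.14, limma). The pro-B samples also carried more RNA of other cell types than the pre-B samples. The array means over 8 plasmacytoid dendritic cell genes were 7.53 to 9.77 in pre-B and 10.91 to 12.08 in pro-B samples, and 7 of the 8 were called lower in pre-B. Those over 15 NK and T cell genes were 5.81 to 6.40 in pre-B and 7.83 to 9.55 in pro-B samples (13 lower), and those over 16 neutrophil and monocyte genes 6.80 to 8.68 and 8.81 to 9.34 (11 lower). In leukemic samples the same 3 lists had array means of 6.84 to 9.85, 4.69 to 7.04 and 4.93 to 8.91. Their part in the transporter differences from pro-B cells was not tested.

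Between immature B and pre-B cells 2 of the 10 transporters passed, where 19.6% of all genes did (10.9% higher and 8.7% lower). Slc3a2 was at 8.88, 9.34 and 9.58 in immature B cells, against 7.96, 8.74 and 9.0 in pre-B cells, with 5 of 6 immature samples above the pre-B range. It was higher by 0.64 ± 0.15 (1.55-fold; adjusted p = 0.00304, limma), although within run 1 it missed the threshold (0.64, adjusted p = 0.0587). Slc38a2 was at 9.88, 10.02 and 10.19 in immature B cells, and every one of these samples was below every pre-B sample, as groups were apart for 9.67% of genes. The difference was -0.41 ± 0.09 (adjusted p = 0.00109).

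Slc7a5 in immature B cells spread from 5.99 through 7.50 to 8.04, and the difference from pre-B cells of -0.45 did not pass (95% interval -0.96 to 0.07; adjusted p = 0.232, limma). Without immature B array 4, the lowest, it was -0.19 (adjusted p = 0.511). Slc7a6 was at 8.17, 8.55 and 8.95 (difference 0.16), Slc1a5 at 9.41, 10.19 and 10.86 (-0.23), Slc7a7 at 6.23, 7.42 and 7.97 (0.13) and Slc1a4 at 6.54, 7.33 and 8.13 (0.02). All of these overlapped the pre-B values. Slc38a1 was at 7.75, 8.06 and 8.34 and differed by -0.33 (adjusted p = 0.14), passing with quantile normalization (-0.39, adjusted p = 0.0197) and with the run as a covariate (-0.33, adjusted p = 0.045). At this step all 15 cell-cycle genes measured were lower in immature B cells, with array means of 8.19 to 9.46, against 10.39 to 11.22 in pre-B cells. Of 16 neutrophil and monocyte genes 7 were higher and 0 lower in immature B cells (array means 7.76 to 9.74, against 6.80 to 8.68 in pre-B cells), and of 11 macrophage genes 5 were higher and 0 lower (4.53 to 7.31, against 4.14 to 5.11), C1qb by 3.28. Of 8 erythroid genes 3 were higher (6.12 to 7.63, against 5.82 to 6.72), and of 15 NK and T cell genes 7 were lower (4.99 to 5.45, against 5.81 to 6.40). The part of these lists in the transporter values was not tested.

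Between mature B and immature B cells 0 of the 10 passed, where 5.25% of genes did (1.96% higher and 3.29% lower). At an unadjusted p under 0.05 there were 2 of the 10 transporters, Slc38a1 and Slc7a6, and 2048 of the 12393 genes. Slc38a1 was at 8.82, 8.10 and 9.0 on the 3 mature B arrays, against 7.75, 8.06 and 8.34 in immature B cells, a difference of 0.59 ± 0.20 (adjusted p = 0.0825, limma). It passed without mature B array 2, the low one (0.87, adjusted p = 0.00784). Slc7a6 was at 8.31, 8.16 and 7.95 on the mature B arrays and differed by -0.40 (adjusted p = 0.235). The other mature B values were 7.40, 6.45 and 8.50 for Slc7a7, 6.57, 7.81 and 6.58 for Slc1a4, 10.28, 10.09 and 10.13 for Slc38a2, 3.83, 3.94 and 3.88 for Slc7a11 and 3.18, 3.31 and 3.34 for Slc7a1, each overlapping the immature B values.

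Across the whole path, mature B cells had 2 of the 10 lower than pro-B cells and none higher, where 28.1% of genes passed (14.6% lower). Slc7a5 was at 7.20, 7.68 and 7.20 on the mature B arrays, against 8.92, 9.34 and 9.69 in pro-B cells, a difference of -1.95 ± 0.32 (3.86-fold; adjusted p = 6.3e-05, limma). Slc7a6 differed by -0.96 ± 0.17 (1.95-fold; adjusted p = 0.000156), and neither overlapped, as groups did not for 28.7% of genes. Within run 2, which holds every mature B array, the differences were -1.87 and -0.92 (adjusted p = 0.000795 and 0.00212). Slc3a2, their partner chain, was at 9.79, 9.27 and 9.71 in mature B cells, and its difference from pro-B cells was 0.24 (95% interval -0.16 to 0.65; adjusted p = 0.364). Slc1a5, at 9.52, 10.38 and 9.26, differed by 0.92 from pro-B cells (adjusted p = 0.0652), and passed without pro-B array 1 (1.09, adjusted p = 0.0279) or 3 (1.03, adjusted p = 0.047). All 15 cell-cycle genes were lower in mature B cells (array means 8.08 to 8.94, against 9.69 to 11.14 in pro-B cells). Of 8 plasmacytoid dendritic cell genes 7 were lower and 1 higher (8.0 to 9.10, against 10.91 to 12.08). Of 15 NK and T cell genes 13 were lower and 1 higher (5.14 to 5.67, against 7.83 to 9.55). The part of these lists in the transporter differences was not tested.

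With all 39 arrays in a single fit, the group means of Slc7a5 ran from leukemic pre-B (9.61) through pro-B (9.31), pre-B (7.72) and mature B (7.36) to immature B (7.27), and among neighbours in this order the step between pro-B and pre-B differed (1.59, adjusted p = 2.47e-05, limma), as did 21.2% of genes. Slc7a6 ran from leukemic pre-B (9.47) through pro-B (9.10), immature B (8.54) and pre-B (8.38) to mature B (8.14), and the step between pro-B and immature B differed (0.56, adjusted p = 0.0208), as did 17.8% of genes. Slc3a2 was highest in mature B (9.59) and lowest in pre-B cells (8.66), Slc1a5 highest in pre-B (10.32) and lowest in pro-B cells (8.80), and Slc38a1 highest in pro-B (8.85) and lowest in immature B cells (8.04). Slc1a4, Slc7a7, Slc7a11 and Slc7a1 had their highest mean in leukemic pre-B cells (8.58, 7.83, 4.09 and 3.47), and Slc38a2 in pre-B cells (10.45). For the transporters other than Slc7a5 and Slc7a6, no pair of neighbouring groups differed in this fit. Over all genes, 22.7% differed between leukemic pre-B and pro-B cells in it, 20.1% between leukemic pre-B and pre-B cells, and 1.64% between immature B and mature B cells.

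In the same fit leukemic pre-B cells were above pro-B cells for the dim Slc7a1 (0.44, adjusted p = 0.00515, limma) and for Slc38a2 (0.30, adjusted p = 0.0201), where 22.7% of genes differed. They were above immature B cells for Slc7a5 (2.34), Slc7a6 (0.93), Slc1a4 (1.26, adjusted p = 0.0309), Slc38a1 (0.54, adjusted p = 0.00505) and Slc38a2 (0.32, adjusted p = 0.00747), where 29.5% of genes differed. They were above mature B cells for Slc7a5 (2.25), Slc7a6 (1.33) and Slc1a4 (1.60, adjusted p = 0.0417), where 25.9% of genes differed. These contrasts share the leukemic arrays with each other and with those above. All 3 mature B arrays are in run 2, as are 4 of the 16 leukemic ones, and the part of the run in these differences was not tested.

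Between leukemias that arose with and without pIpC, 0 of 10 transporters and 0 of 12393 genes passed (0% of genes; limma), and at an unadjusted p under 0.05 there were 0 transporters and 603 genes. Slc1a5 was at 8.56, 8.83, 8.92, 10.23 and 10.91 with pIpC, against 6.63, 9.50 and 10.65 without pIpC (lowest, median and highest of 11). The difference was 0.46 (95% interval -0.66 to 1.59), and -0.018 within run 1. Run 1 holds 3 arrays with pIpC and 9 without, and run 2 holds 2 of each. The values of 10.23 and 10.91 are those of the pIpC arrays in run 2. Slc1a4 was at 7.55, 9.81, 8.66, 6.65 and 10.98 with pIpC, against 6.98, 8.35 and 10.46 without, with a difference of 0.22 (95% interval -1.22 to 1.65). Slc7a5 was at 8.99, 9.89, 9.64, 9.45 and 10.33 with pIpC, against 8.48, 9.57 and 10.39 without, with a difference of 0.07 (95% interval -0.48 to 0.63). The ranges overlapped for all 10, where those of 0.0565% of genes did not, and the largest difference of either sign was that of Slc1a5.

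Among the 16 leukemic samples, 75 relations of the transporters with each other and with Myc, Atf4 and Asns were computed. By Pearson r, the measure meant below by passing, 7 passed after adjustment. Slc7a5 with Slc1a4 (r = 0.62 and rho = 0.73, adjusted p = 0.0728 and 0.0239, permutation tests) passed by rho only. So did Slc1a5 with Slc38a2 (r = 0.61 and rho = 0.73, adjusted p = 0.0842 and 0.0239, permutation tests). Of the pairs of the CD98 heavy chain with its 4 light chains, those with Slc7a5 and Slc7a6 passed, while Slc7a7 (r = -0.0008 and rho = 0.06, adjusted p = 0.997 and 0.947) and Slc7a11 (r = -0.63 and rho = -0.47, adjusted p = 0.0728 and 0.328; permutation tests over 16 arrays) did not. Slc3a2 and Slc7a5 had r = 0.83 and rho = 0.64 over the 16 arrays (permutation p = 7e-05 and 0.00882, adjusted p = 0.00525 and 0.0767), r = 0.67 without the 2 samples farthest in Slc3a2 and r = 0.84 over the 12 arrays of run 1. Slc7a5 and Slc7a6 had r = 0.79 and rho = 0.76 (permutation p = 0.00024 and 0.00104, adjusted p = 0.009 and 0.0239), 0.59 without the 2 farthest samples and 0.77 in run 1. Slc3a2 and Slc7a6 had r = 0.68 and rho = 0.50 (permutation p = 0.00368 and 0.0506, adjusted p = 0.0394 and 0.28). This relation was weaker without the 2 farthest samples (r = 0.41) and in run 1 (0.56). Run 2 has too few leukemic arrays for a value of its own.

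Slc3a2 and the dim Slc7a1 went in opposite directions, with r = -0.76 and rho = -0.79 (permutation p = 0.00067 and 0.00051, adjusted p = 0.01 and 0.0239), -0.80 without the 2 farthest samples and -0.86 in run 1. The 45 pairs of transporters had a median r of 0.10, from -0.76 to 0.83. Arrays A46 and 17, both of run 2, were the highest leukemic samples for Slc3a2, Slc7a5, Slc7a6, Slc1a4, Slc1a5 and Slc38a1.

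**Figure D4:**
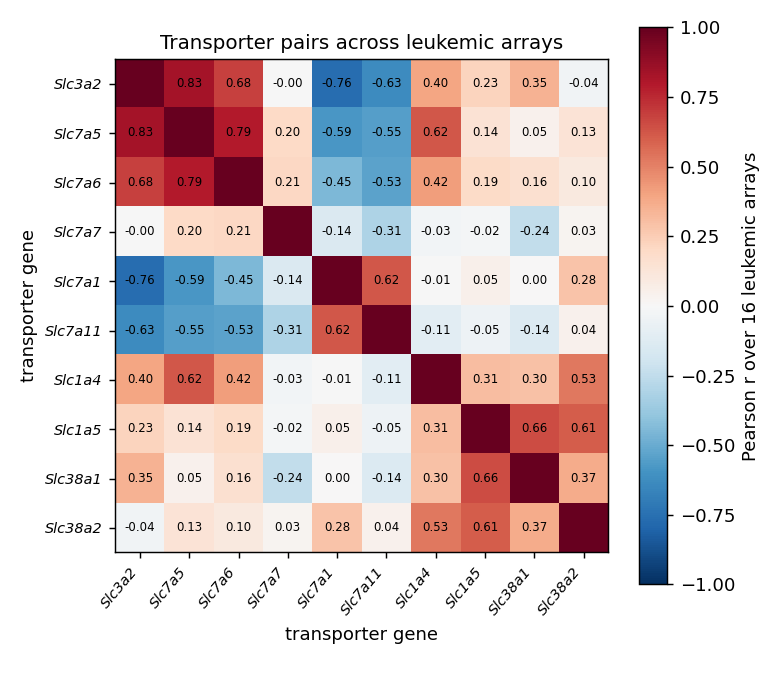
Pearson r of each pair of transporters over the 16 leukemic arrays, red for positive and blue for negative. Slc3a2, Slc7a5 and Slc7a6 form the block of 0.68 to 0.83 at the upper left, and Slc7a1 and Slc7a11, both dim, are negative with it.

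Slc1a4 varied with Asns, with r = 0.79 and rho = 0.77 (permutation p = 0.0004 and 0.00077, adjusted p = 0.00994 and 0.0239), 0.77 without the 2 farthest samples and 0.75 in run 1. Slc1a5 varied with Atf4, with r = 0.77 and rho = 0.74 (permutation p = 0.00053 and 0.00152, adjusted p = 0.00994 and 0.0239), 0.58 without the 2 farthest samples and 0.55 in run 1. Slc38a1 and Atf4 had r = 0.73 and rho = 0.64 (permutation p = 0.00131 and 0.0092, adjusted p = 0.0164 and 0.0767), 0.46 without the 2 farthest samples and 0.44 in run 1. None of the 10 relations with Myc passed, that of Slc7a5 having r = 0.01 and rho = -0.19 (permutation p = 0.956 and 0.479, adjusted p = 0.997 and 0.658).

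**Figure D5:**
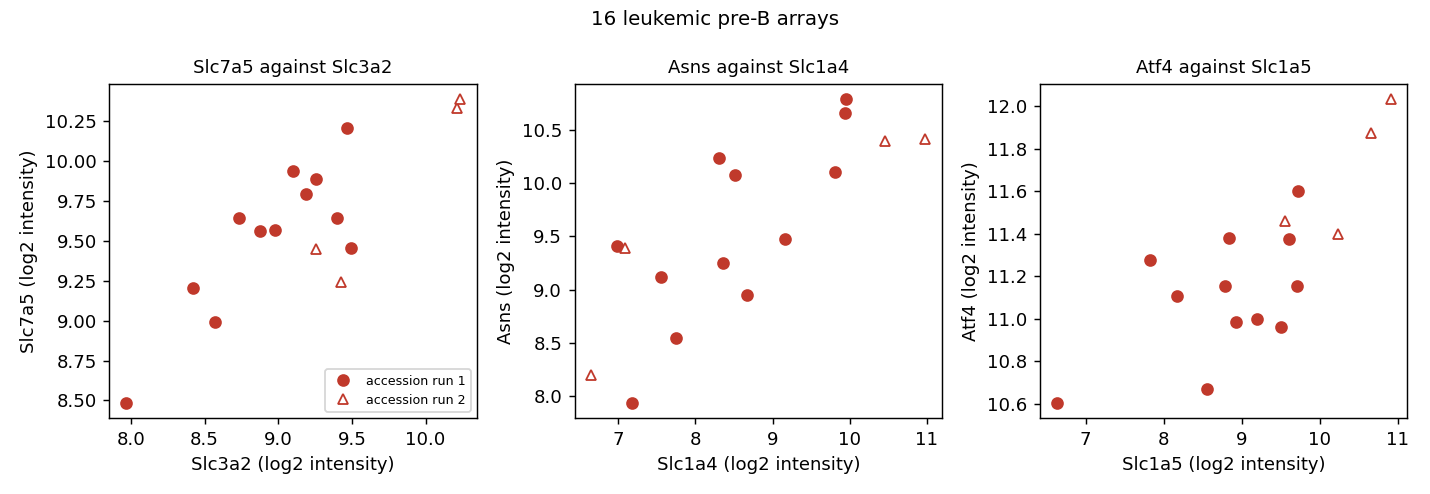
Log2 intensities on the 16 leukemic arrays of Slc7a5 against Slc3a2 (r = 0.83), Asns against Slc1a4 (r = 0.79) and Atf4 against Slc1a5 (r = 0.77); filled circles are accession run 1 and open triangles run 2. The points of run 2 include the highest values in the first and the third panel.

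Among 5800 other genes that were not dim and varied among leukemic samples (SD at least 0.3), those most like each transporter over the 16 arrays are given as a description. For Slc3a2 they were Crem (r = 0.94), a cyclic AMP response factor, and Spout1 (0.92). For Slc7a5 they were Rap1gds1 (0.87) and again Crem (0.85), for Slc7a6 Pus3 and Haus1 (both 0.88), and for Slc7a7 Inppl1 (0.78) and Stam (0.77). For Slc1a4 they were Zc3h8 (0.89) and Bves (0.85), for Slc1a5 Mtbp (0.91) and Nipsnap1 (0.91), for Slc38a1 Aimp1 and Kptn (both 0.81) and for Slc38a2 Nipbl (0.88) and Rad1 (0.79). The dim Slc7a11 and Slc7a1 were most like Asb6 (0.90) and Cyct (0.89), and Zc3h3 (0.91) and Inpp5j (0.90). Within run 1, r was 0.70 for Slc38a1 with Aimp1, 0.55 with Kptn, and 0.66 for Slc1a4 with Bves. The other values within run 1 were 0.76 to 0.93.

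Other genes of amino acid handling put the transporters beside their pathway. Of 21 further plasma membrane amino acid transporters measured, 1 passed between leukemic pre-B and pre-B cells, where 16% of all genes did. It was Slc6a6, the taurine carrier, higher by 1.14 (adjusted p = 0.0321, limma). The median difference of the 21 was -0.01, the same to 2 decimals as that of all genes (-0.01). Against pro-B cells 2 of the 21 were higher in leukemic cells and 0 lower, Slc7a9 (0.83) and Slc38a4 (0.45), where 15.7% of all genes passed. Between pre-B and pro-B cells, where 33.6% of all genes passed, 3 were higher and 2 lower, with Slc1a2 (1.17) and Slc7a9 (0.70) higher and Slc6a9 (-1.23) and Slc6a6 (-1.07) lower. Of 9 transporters listed as lysosomal or intracellular, 0 passed between leukemic pre-B and pre-B cells, where 16% of all genes did. This list is not confined to amino acid carriers, since Slc29a3 carries nucleosides and Slc43a3 purines. Against pro-B cells 1 was higher and 2 lower in leukemic cells, where 8.11% of all genes were higher and 7.63% lower. The lower ones were Slc15a3 (-1.58), a peptide and histidine carrier, and Slc29a3 (-1.47). In pre-B against pro-B cells 3 were lower and 0 higher, where 15.7% of all genes were lower and 17.9% higher. Slc29a3 (-1.5) and Slc15a3 (-1.02) led these. The pro-B samples carried more RNA of other cell types, as given above, and the part of this in these values was not tested. In immature B against pre-B cells 5 of the 9 passed, 4 higher and 1 lower, where 19.6% of all genes passed, with a median of 0.34 against -0.06 over all genes, beside the higher macrophage and neutrophil and monocyte markers given above for this step. Among them were Slc15a3 (1.79), higher, and Slc43a3, a purine carrier, lower (-1.33).

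Of 28 amino acid response and ATF4 pathway genes, 6 were higher and 2 lower in leukemic pre-B than in pre-B cells, where 8.5% of all genes were higher and 7.53% lower, with a median of 0.34. The higher ones were led by Asns, at 9.56 ± 0.87 in leukemic cells and 6.62 ± 0.67 in pre-B cells (SD, n = 16 and 8; difference 2.94, adjusted p = 5.48e-07, limma), by Cth (2.06), which makes cysteine from cystathionine, and by Shmt2 (2.01), which makes glycine from serine in mitochondria. The lower ones were Ppp1r15a (-1.76), which restores translation after stress, and Eif2ak3 (-0.86), the endoplasmic reticulum stress kinase PERK. Atf4 itself differed by -0.13 (adjusted p = 0.639) and Sesn2, a leucine sensor, by -0.13 (adjusted p = 0.804). Against pro-B cells, where 15.7% of all genes passed, 6 of the 28 were higher and 1 lower, led by Cth (2.67) and Asns (1.56). Between pre-B and pro-B cells, where 33.6% of all genes passed, 8 were higher and 4 lower, with Asns (-1.38) and Shmt2 (-1.14) leading the lower ones.

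The cytosolic aminoacyl-tRNA synthetases, which load amino acids onto tRNA, were higher in 10 of 18 and lower in 0 in leukemic pre-B against pre-B cells, with a median of 0.53, where 16% of all genes passed. Gars (0.84), Eprs (0.77) and Farsb (0.77) led the 10. Against pro-B cells 0 of the 18 passed (median 0.28), where 15.7% of all genes did. In pre-B against pro-B cells 2 were lower, where 15.7% of all genes were, Lars (-0.44) and Nars (-0.41). Of 14 genes of glutamine and branched-chain amino acid use, 4 were higher in leukemic than in pre-B cells and 0 lower (median 0.42; 8.5% of all genes were higher and 7.53% lower), among them Bcat1 (1.90), which transaminates branched-chain amino acids, Cad (1.38) and Ppat (0.81), which use glutamine for nucleotide synthesis. Between pre-B and pro-B cells 1 was higher and 4 lower (17.9% and 15.7% of all genes), Bcat1 (-1.08) and Cad (-0.90) leading.

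Of 25 genes of amino acid sensing by mTORC1, 4 were higher and 4 lower in leukemic than in pre-B cells (median 0.07; 8.5% of all genes were higher and 7.53% lower), with Rragd (1.07), Lamtor4 (0.62) and Rraga (0.52) among the higher, Castor2 (-1.59), Nprl2 (-0.81) and Mtor (-0.66) among the lower. Of 15 genes listed for glutathione and cystine use, among them regulators such as Keap1 and Nfe2l2, 1 was higher (Txnrd1, 0.65) and 1 lower (Gclc, -1.02) in the same comparison. Myc was at 10.54 ± 0.70 in leukemic and 7.81 ± 0.71 in pre-B cells (difference 2.73, adjusted p = 2.31e-07, limma), and at 10.30 ± 0.73 in pro-B cells (leukemic minus pro-B 0.24, adjusted p = 0.61). Between pre-B and pro-B cells Myc had a difference of -2.49 (adjusted p = 2.93e-06).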

How the data were processed

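The deposited table holds linear intensities, for which the submitters' processing notes name RMA; its version and whether all arrays were normalized together are not given in the sources used here. Per the labels' protocols, 20 ng of total RNA was amplified before hybridization. The table has 22690 probe sets, and 64 control probe sets, 691 with several symbols and 1555 with none were set aside.

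Values were taken as log2 with no offset and fitted with limma 3.58.1 in R 4.3.3 (eBayes with an intensity trend), with Benjamini-Hochberg adjustment over all 12393 genes and a threshold of 0.05. The 23 normal arrays shared a single fit, and each leukemic comparison used its own groups. Relations among leukemic arrays used two-sided permutation tests with 100000 resamples (numpy 2.4.6, scipy 1.17.1). Fits were tested on simulated data. The number of arrays limits the precision, and the replicate numbers were not taken to pair samples.

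The transporters, the pathway lists and the marker lists were chosen with earlier results of these data known. All 10 transporters are named with every probe set. Of a pathway list, up to 3 called genes a direction are named in leukemic pre-B against pre-B and up to 2 in other comparisons, by size of difference, besides Atf4, Asns, Myc and Sesn2. For likeness, the 2 genes with the highest r are named.

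The alternatives tried were no intensity trend, a quantile step, a filter that drops the dimmest 40% of genes, averaging the probe sets of a gene, setting aside those of the _x_at, _s_at and _a_at types, all 39 arrays in a single fit, the run as a covariate, each run alone, the replicate block, and leaving out each array.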

Additional observations from a re-analysis of the deposited data

Results flagged for a closer look

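In immature B cells array 4, of run 1, stood apart from the other 5 arrays for both dim transporters. Slc7a11, the cystine carrier, was at 4.82 there, with the nearest other array at 3.76 and the lowest at 3.27 (log2 intensity). Slc7a1, the arginine and lysine carrier, was at 3.91, with the nearest other array at 3.27 and the lowest at 3.03. In both the gap to the nearest array took a larger share of the group's range than Dixon's 95% critical value allows. In all 40 sets were examined, each a transporter in pro-B, pre-B, immature B or pIpC leukemic samples, and chance singles out about 1 in 20 of such sets. The same array was the lowest in its group for Slc3a2 (8.88), Slc7a5 (5.99), Slc7a6 (8.17), Slc7a7 (6.23) and Slc38a1 (7.75), and the highest for Slc1a5 (10.86).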

How the results depend on the processing

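The calls of Slc7a5 and Slc7a6 against pre-B cells held in all 10 alternative settings and on leaving out each of 24 arrays, with differences of 1.80 to 2.15 and 0.97 to 1.37. Over all comparisons, 1712 alternative values of single transporters were computed; 24 lost a call, 28 gained one and 60 changed sign, none of these last called in either setting. In leukemic pre-B against pre-B cells 3 transporters passed, and 2 to 4 on leaving out each array, with 1617 to 2359 genes; run 1 alone gave 1001 genes, against 1987. In leukemic pre-B against pro-B cells 1 transporter passed, and 1 to 3 on leaving out each array; 2 passed with quantile normalization, with all 39 arrays in a single fit and with the run as a covariate, 3 without arrays 116 and 122 (chosen after seeing the data), and 0 without the dimmest genes, in run 1 alone and in run 2 alone. There 1950 genes passed, 813 without the dimmest genes, 344 in run 1, 786 in run 2 and 860 to 2777 on leaving out each array, the low counts coming without pro-B array 1 (1286), 2 (860), 3 (1252) or 6 (957). For pre-B against pro-B cells 6 transporters passed (5 or 6 on leaving out each array), with 4162 genes, 2509 without the dimmest, 2627 in the single fit, 2191 in run 1, 2055 in run 2 and 3190 to 4833 on leaving out each array. For immature B against pre-B cells 2 passed (2 on leaving out any array), and 1 without the _x_at, _s_at and _a_at probe sets, in the single fit (Slc3a2 then had an adjusted p of 0.0749) and in run 1; genes were 2426, 1414 in the single fit, 1314 in run 1 and 2082 to 2842 on leaving out each array. For mature B against immature B cells 0 passed, 1 with quantile normalization (Slc38a1, 0.61), and 0 to 1 on leaving out each array; genes were 651, 203 in the single fit, 1026 with the run as a covariate, and 241 to 801 on leaving out each array (241 without mature B array 1, 364 without 3). For mature B against pro-B cells 2 passed, 2 to 3 on leaving out each array; genes were 3485, 2276 in the single fit, 5482 with the run as a covariate, and 2574 to 3335 on leaving out each array. For pIpC 0 transporters passed in any setting, and genes were 0, 1 without the _x_at, _s_at and _a_at probe sets, 1 in run 1, and 0 to 2 on leaving out each array (2 without A46).

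The replicate numbers were checked for pairing: deviations of the 27 same-numbered pairs of normal samples correlated from -0.74 to 0.66, 16 of them over 0.1, and 2 pairs lay in different runs. All 6 pairs of pro-B and immature B samples were over 0.1 (0.22 to 0.45), but in each of the 4 comparisons tested at least 1 pair was below it, so the numbers were not taken to pair samples. With the replicate block the pre-B against pro-B count was 5, since Slc38a1 was lost (-0.37, adjusted p = 0.0786), with 3057 genes; the other normal comparisons kept counts of 2, 0 and 2.

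Signs of uncalled differences turned as follows. In run 2 alone, Slc3a2 (0.28) and Slc7a7 (-0.31) turned in leukemic pre-B against pro-B, Slc1a4 (-0.11) in immature B against pre-B, Slc7a5 (-0.082), Slc7a7 (-0.15) and Slc1a4 (0.0012) in mature B against immature B, Slc38a2 (-0.0068) in mature B against pro-B, and Slc3a2 (-0.10), Slc7a1 (-0.037), Slc7a6 (-0.046), Slc38a1 (-0.082) and Slc38a2 (0.015) for pIpC. In run 1 alone, Slc7a1 (-0.013), Slc7a7 (-0.12) and Slc1a5 (0.071) turned in immature B against pre-B, and Slc3a2 (-0.14), Slc7a5 (-0.032) and Slc1a5 (-0.018) for pIpC. Slc1a4 turned without the _x_at, _s_at and _a_at probe sets in pre-B against pro-B (0.16) and in mature B against pro-B (0.27), where a dimmer probe set replaced its brightest. Quantile normalization turned Slc1a4 (-0.055) in immature B against pre-B, Slc7a1 (-0.050) in mature B against immature B and Slc3a2 (-0.018) for pIpC; the mean of probe sets turned Slc7a6 (-0.013) and the run as a covariate Slc3a2 (-0.12) for pIpC. On leaving out each array, differences that changed sign ranged over -0.12 to 0.058 (Slc7a1), -0.0061 to 0.34 (Slc7a7) and -0.14 to 0.18 (Slc1a4) in immature B against pre-B. In mature B against immature B they ranged over -0.17 to 0.24 (Slc7a5), -0.042 to 0.14 (Slc7a1) and -0.39 to 0.64 (Slc7a7), and in mature B against pro-B over -0.69 to 0.34 (Slc7a7) and -0.39 to 0.059 (Slc38a1). For pIpC they ranged over -0.19 to 0.22 (Slc3a2), -0.10 to 0.24 (Slc7a5), -0.039 to 0.12 (Slc7a1), -0.011 to 0.70 (Slc7a7), -0.35 to 0.74 (Slc1a4) and -0.12 to 0.0018 (Slc38a2). Why these values moved was not tested, except that a single run holds fewer arrays. Slc7a11 and Slc7a1 lie near background, where small differences carry little weight, and mature B rests on 3 arrays of a single run. Setting aside the dimmest genes gave no value for Slc7a11 and Slc7a1, and setting aside the _x_at, _s_at and _a_at probe sets gave none for Slc3a2 and Slc7a7.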
